A study of Mus musculus with 38 samples.

Results

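LAP2B binding to the genome was compared in epiblast-like cells (EpiLCs) that lacked the lamin B receptor (LBR) and either kept or had lost the lamins. The comparison rests on the CUT&RUN libraries labelled QKO and LBRKO at the primed stage, 3 of each, which are 6 of the 38 samples of the series. They were chosen by genotype, stage and antibody alone. LAP2B is an inner nuclear membrane protein made by Tmpo, and CUT&RUN uses a nuclease held by an antibody to cut out DNA close to its target. Both groups were mouse embryonic stem cells that had been moved out of the naive state for 48 h in N2B27 medium with 20 ng/mL FGF and 12 ng/mL activin A, and each replicate used 200000 cells. LBRKO cells carry frameshift indels in Lbr and came from the wild type (WT) line. QKO cells lack Lmna, Lmnb1 and Lmnb2 as well as LBR, and came from TKO cells, which lack the same lamins and keep LBR. According to the study QKO is a single clone, with a frameshift deletion and an in-frame deletion at Lbr given in its supplement, whereas several LBRKO clones were made. TKO cells came as a line of their own with trisomy 8 in both of the populations that were karyotyped and loss of the Y chromosome in one of them. WT cells were mostly of normal ploidy, with populations that had lost the Y chromosome or carried trisomy 6 and 8 together with its loss. The groups therefore differ in line of origin as well as in lamins, and these cannot be told apart. WT and TKO EpiLCs, 3 LAP2B libraries each, and naive LBRKO and QKO cells, 3 each, are cited where the same loss of lamins was measured with LBR present or at the other stage. No label gives a batch, or says that replicates were separate cultures, so p-values measure the spread between libraries.

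Lamins form a meshwork under the inner nuclear membrane, and LBR is a membrane protein that binds both B-type lamins and heterochromatin. Large stretches of gene-poor, late-replicating chromatin lie against this layer, and lamins and LBR are known as alternative tethers that hold it there. LAP2B sits in the same membrane, binds lamins and reaches DNA through BAF, the small protein made by Banf1. EpiLCs model the epiblast shortly after implantation, the stage at which cells leave naive pluripotency.

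EpiLCs without lamins and LBR held less LAP2B signal than EpiLCs without LBR alone. What was left had far less contrast between genes rich and poor in WT LMNB1. The study found LAP2B signal both inside and outside lamina-bound regions in WT EpiLCs, and did not use LAP2B to stand for those regions at this stage. The contrasts below therefore describe LAP2B signal and do not measure contact with the lamina. The mean deposited signal over genes, which is scaled to a yeast spike-in and called here the spike-in scale, was 12.6, 12.6 and 13.6 in the LBRKO libraries and 6.52, 5.92 and 6.03 in the QKO libraries. On the log2 scale the level was 3.69 ± 0.06 (SD, n = 3) in LBRKO and 2.62 ± 0.07 in QKO, so that QKO stood at 0.475 of LBRKO. The groups did not overlap, and the exact permutation test gave p = 0.1, the smallest value that 3 libraries against 3 allow. Fewer LAP2B molecules on chromatin, fewer cells recovered and less efficient cutting cannot be told apart in these values. Reads recovered over the gene table were 28218939 to 36816402 in the 6 libraries, with a median gene of 81 to 114 reads, so depth was alike in both groups.

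Genes were ranked by LMNB1 per 1 kb bin in WT EpiLCs and cut into 4 equal classes, and lamina contrast is defined here as log2 of mean LAP2B signal per bin in the top class over that in the bottom class. It was 0.765, 0.761 and 0.689 in the LBRKO libraries and 0.157, 0.133 and 0.165 in the QKO libraries. The means were 0.738 ± 0.043 and 0.152 ± 0.016 (SD, n = 3), a difference of -0.59 without overlap (exact permutation p = 0.1, adjusted p = 0.1 over 4 measures). For scale, the WT LMNB1 libraries themselves reached 1.52 ± 0.15 and the IGG background, a non-specific antibody, 0.26 ± 0.05, so the QKO libraries lay below the background libraries in this measure. With 10 classes in place of 4 the contrasts were 1.33 ± 0.05 in LBRKO and 0.597 ± 0.018 in QKO, and no background value was computed for these classes. In QKO it was below 0 with the median in place of the mean (-0.16), with classes by naive LMNB1 (-0.26) and with classes by LMNB1 over IGG (-1.01), where LBRKO stood at 0.53, 0.63 and -0.07. QKO was lower than LBRKO by each of these definitions.

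The profile across genes lost its likeness to LMNB1 and came closer to that of IGG. Spearman's rho across genes with WT LMNB1, per bin, was 0.353, 0.346 and 0.316 in the LBRKO libraries and -0.005, -0.018 and 0.002 in the QKO libraries. With IGG it was 0.461, 0.455 and 0.516 in LBRKO and 0.736, 0.755 and 0.741 in QKO. Neither measure overlapped between the groups, with differences of -0.35 and 0.27 (exact permutation p = 0.1 for each). Genes are not independent replicates, so the rho values describe profiles and the test is over libraries.

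**Figure D1:**
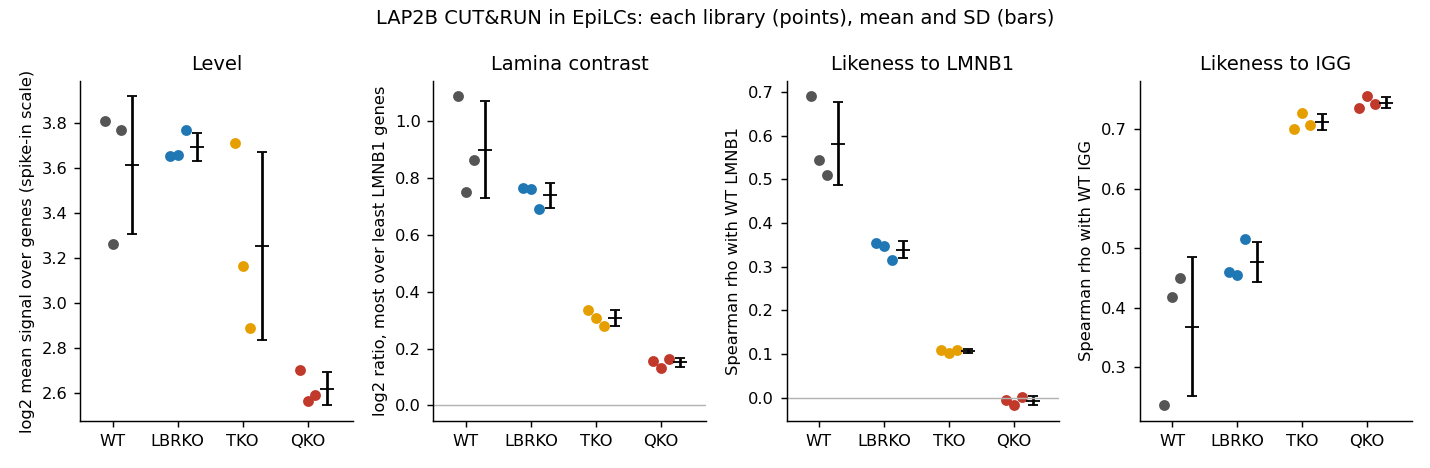
Each point is 1 LAP2B library of EpiLCs, and bars show mean and SD of 3 libraries per genotype, for the level (log2 of the mean signal on the spike-in scale), the lamina contrast (log2 ratio) and Spearman's rho across genes with WT LMNB1 and with WT IGG. QKO libraries lie below LBRKO libraries in the first 3 panels, with lamina contrasts of 0.133 to 0.165 against 0.689 to 0.765, and above them in the last.

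The same loss of lamins was also measured where LBR is present, from WT to TKO EpiLCs, in libraries that the comparison above does not use. The lamina contrast fell from 0.899 ± 0.171 to 0.308 ± 0.029 there, a change of -0.59, and the difference between the changes with and without LBR was 0.004 (exact permutation over 400 assignments, p = 0.985, adjusted p = 0.985 over 8 tests). The level fell by 1.07 on the log2 scale without LBR and by 0.36 with it, a difference that did not pass the same exact permutation test (p = 0.055, adjusted p = 0.11). The SDs of the WT and TKO levels were 0.31 and 0.42. When recovered reads rather than RPKM were multiplied by the spike-in factor they were 0.12 and 0.065, and the levels were then 3.41 in WT, 3.30 in TKO, 3.92 in LBRKO and 2.92 in QKO, for which the interaction was not tested. In naive cells without LBR, with classes set by naive WT LMNB1, the lamina contrast changed by -1.59, and the EpiLC change was smaller by 1.00 (exact permutation p = 0.025, adjusted p = 0.1). That gap compares different classes of genes: over the EpiLC classes the naive contrast went from 0.746 ± 0.113 in LBRKO to -0.191 ± 0.040 in QKO. None of the 8 interaction tests passed after adjustment.

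Gene by gene, the loss on the spike-in scale was broad. Of 70381 genes tested with limma, 42280 (60.1%) were called lower in QKO at a Benjamini-Hochberg adjusted p under 0.05 and 63 (0.0895%) higher, which is 60.2% in either direction. The 63 became 24 without QKO replicate 1, 35 without QKO replicate 2 and 350 with only the 6 libraries in the model. With only those 6, 53038 genes (75.4%) were called, 52688 of them lower. The main model shares 1 estimate of the spread with the WT, TKO and naive libraries, so these counts depend on that choice. To see which genes lost more or less than the rest, the values of every library were set against its own median gene, which is called the relative scale. On this scale 21270 genes (30.2%) were called, of which 9743 genes (13.8%) rose and 11527 (16.4%) fell. With only the 6 libraries in the model 29137 (41.4%) were called. Each of the 11527 was also lower on the spike-in scale, whereas 9021 of the 9743 were not called there and 659 were called lower. A gene not called on the spike-in scale is not thereby shown to be unchanged. Division by the mean gene in place of the median gene shifts the median of all genes from -0.01 to 0.12 (log2), and the split becomes 14232 higher and 8016 lower, which is 64.0% higher in place of 45.8%.

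LMNB1 in WT EpiLCs ordered these changes. From the tenth of genes with least LMNB1 to the tenth with most, the median relative change ran from 0.23 to -0.44 (log2), and the share called lower from 4.93% to 37.1%. On the spike-in scale the same medians ran from -0.55 to -1.22. With LBR present, the TKO change ran from 0.22 to -0.46 over the same classes, and in naive cells without LBR the change ran from 0.14 to -0.65. Base composition ordered the genes too, with medians from -0.25 in the tenth lowest in GC to 0.36 in the tenth highest, and the tenth of genes with most IGG signal had a median of 0.38. Within the 4 classes of GC content the class with most LMNB1 was the lowest in each: medians over 4 LMNB1 classes ran from -0.01 to -0.50 in the class lowest in GC, and were 0.42, 0.45, 0.30 and -0.08 in the highest. Within each class of LMNB1 the class highest in GC had the highest median, 0.43 against 0.07 for the lowest in GC where LMNB1 was least, and -0.14 against -0.38 where it was most. The part of background signal in the result was not tested.

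**Figure D2:**
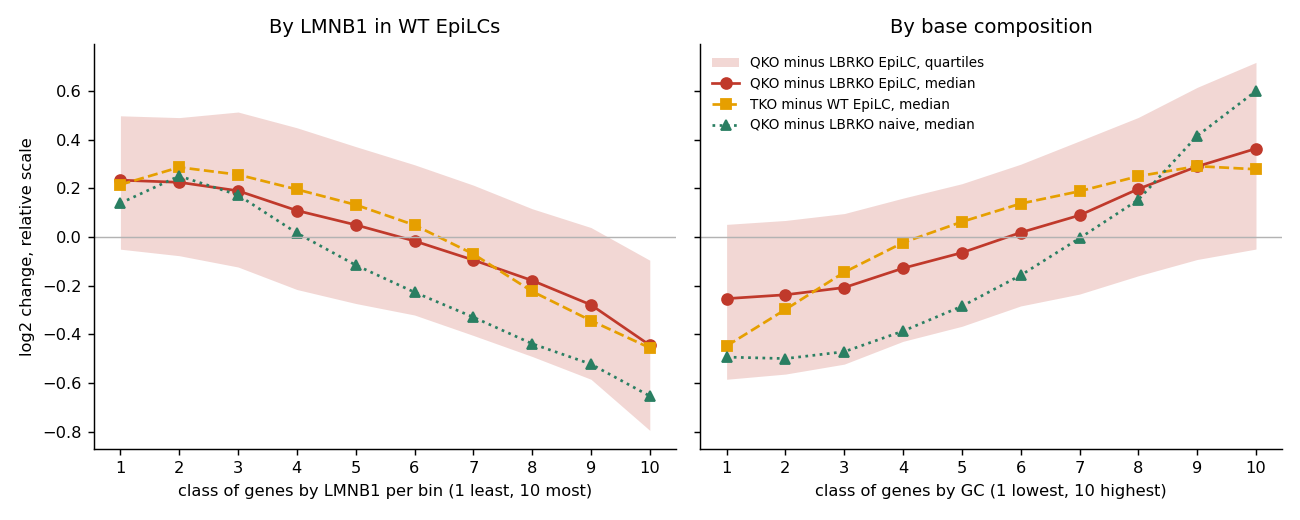
Median log2 change on the relative scale for 10 equal classes of genes ranked by WT EpiLC LMNB1 per bin (left) or by GC content (right), with shading between the quartiles for QKO minus LBRKO EpiLCs. The median falls from 0.23 to -0.44 with LMNB1 and rises from -0.25 to 0.36 with GC, and the other curves give TKO minus WT EpiLCs and QKO minus LBRKO naive cells.

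The genes named next are the 8 largest rises and 7 of the 8 largest falls on the relative scale among protein-coding genes of at least 10 bins, past the adjusted threshold and without overlap between libraries, at most 2 with the same name stem and 1 per 1 Mb. Lack of overlap held for 23.5% of all genes upward and 26.2% downward. Values are the signal summed over the gene divided by the library's median gene. Mafg, a small Maf transcription factor, stood at 2.11, 1.80 and 2.42 in LBRKO and at 6.56, 7.18 and 5.40 in QKO. Its change of 1.55 ± 0.19 (log2, SE, limma adjusted p = 3.0e-09) was the largest of the 8. In the model of 24 libraries Mafg alone of the 8 was also called higher on the spike-in scale (0.66, limma adjusted p = 0.030). Polr2e, a subunit shared by the nuclear RNA polymerases, stood at 0.989, 0.469 and 0.965 in LBRKO and at 2.47, 2.75 and 2.06 in QKO (1.53 ± 0.26, limma adjusted p = 4.6e-06). Slc3a2, the heavy chain of amino acid transporters that include LAT1, stood at 3.71, 2.75 and 2.92 in LBRKO and at 8.49, 8.82 and 8.56 in QKO (1.45 ± 0.15). In these 3 genes every QKO library exceeded every LBRKO library more than 2 times over. The rest were Renbp (1.50), which makes an enzyme of amino sugar metabolism, Fbxw9 (1.46), an F-box protein of ubiquitin ligases, Smim40 (1.46), Scaf1 (1.40), which binds the tail of RNA polymerase II, and Spred3 (1.40), an inhibitor of Ras signalling. Across the 7 others the spike-in changes were 0.50 to 0.68 with adjusted p from 0.055 to 0.095. Percentiles of WT IGG background per bin were 96.2 for Mafg, 94.3 for Fbxw9, 92.5 for Spred3, 89.5 for Scaf1 and 86.4 for Slc3a2. They were 28.6 for Renbp, 25.4 for Polr2e and 0.50 for Smim40.

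Of the 7 falls, 4 lay on chromosome 6, 2 on X and 1 on chromosome 1. Slco1b2, an organic anion transporter of liver cells, lies at chr6:141575179-141633546 (GRCm39, plus strand) in the 98th percentile of LMNB1. It stood at 35.8, 35.3 and 30.9 in LBRKO and at 7.17, 7.89 and 7.28 in QKO, a change of -2.17 ± 0.14 (log2, SE; limma adjusted p = 5.0e-18). Ipo8, a nuclear import receptor, stood at 63.9, 66.2 and 58.5 in LBRKO and at 16.9, 17.4 and 15.6 in QKO (-1.91 ± 0.11). Klrc2, a receptor of natural killer cells, stood at 2.15, 2.14 and 1.95 in LBRKO and at 0.398, 0.518 and 0.444 in QKO (-1.98 ± 0.23). Cr2, the complement receptor of B cells, stood at 26.7, 26.7 and 24.0 in LBRKO and at 8.59, 7.62 and 7.82 in QKO (-1.67 ± 0.11). For each of these the groups were far apart relative to the spread of the libraries. The other falls were Atg4a (-1.90), a protease of autophagy, Lrp6 (-1.70), a Wnt co-receptor, and Radx (-1.64), which binds single-stranded DNA at replication forks. On the spike-in scale the 7 fell by 2.55 to 3.08, against a median of -0.82 over all genes. LMNB1 percentiles were 82.4 for Klrc2, 85.7 for Ipo8, 86.7 for Lrp6 and 99.6 for Cr2, but 24.4 for Atg4a and 36.8 for Radx.

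**Figure D3:**
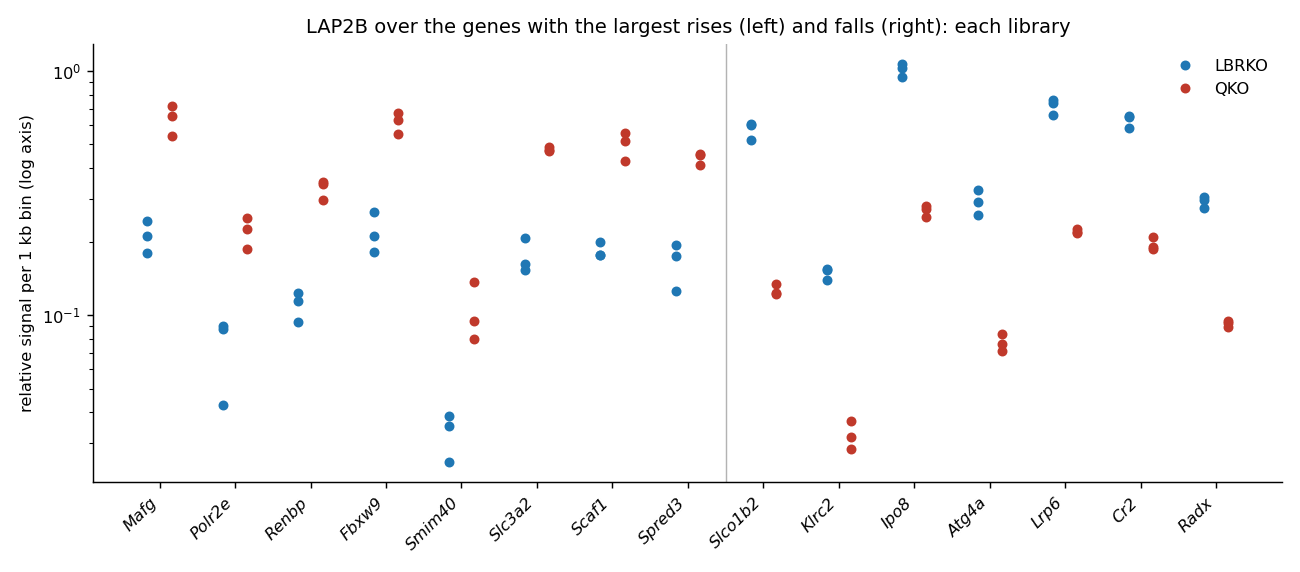
Relative LAP2B signal per 1 kb bin (log axis) in each of the 3 LBRKO and 3 QKO EpiLC libraries for the 8 genes with the largest rises and 7 of the 8 with the largest falls. The groups do not overlap in any of the 15, as the rule for naming them required.

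With LBR present (TKO minus WT), Ipo8 changed by -0.32 and Lrp6 by -0.33, and the difference from the change without LBR passed the test in each (interaction -1.59 and -1.38, limma adjusted p = 1.1e-09 and 9.0e-09). For Klrc2 no such difference was detected: it changed by -2.13 with LBR and -1.98 without it, and the difference of 0.14 did not pass (adjusted p = 0.860).

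Promoters varied in base composition among both the genes that rose and those that fell. The windows below are the 250 bases before the annotated start of 2 genes that rose and 2 that fell, 5′ to 3′ on the strand of the gene, with each CG dinucleotide in capitals (GRCm39, starts from GENCODE M39). Polr2e is at chr10:79875674-79875923 (minus strand), Renbp at chrX:72974457-72974706 (minus), Klrc2 at chr6:129637653-129637902 (minus) and Lrp6 at chr6:134544213-134544462 (minus).
Polr2e: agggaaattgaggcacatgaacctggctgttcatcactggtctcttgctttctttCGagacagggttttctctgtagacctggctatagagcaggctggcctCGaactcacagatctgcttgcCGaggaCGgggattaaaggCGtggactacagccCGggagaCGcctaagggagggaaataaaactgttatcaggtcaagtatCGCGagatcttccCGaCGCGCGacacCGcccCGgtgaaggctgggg
Renbp: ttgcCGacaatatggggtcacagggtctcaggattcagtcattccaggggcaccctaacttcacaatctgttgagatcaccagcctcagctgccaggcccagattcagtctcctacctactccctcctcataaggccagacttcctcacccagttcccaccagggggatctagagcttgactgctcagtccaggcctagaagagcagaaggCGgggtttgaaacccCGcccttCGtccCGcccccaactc
Klrc2: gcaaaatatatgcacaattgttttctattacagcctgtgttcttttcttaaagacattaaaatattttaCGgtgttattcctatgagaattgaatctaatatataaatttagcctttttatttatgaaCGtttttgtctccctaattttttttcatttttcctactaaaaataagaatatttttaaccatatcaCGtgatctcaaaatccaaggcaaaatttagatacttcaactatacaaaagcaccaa
Lrp6: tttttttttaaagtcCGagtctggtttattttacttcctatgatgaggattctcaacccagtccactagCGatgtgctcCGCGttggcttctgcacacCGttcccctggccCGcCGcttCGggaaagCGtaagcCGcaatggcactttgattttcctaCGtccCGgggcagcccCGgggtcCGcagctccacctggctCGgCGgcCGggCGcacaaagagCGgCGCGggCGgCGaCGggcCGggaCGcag
These hold 15, 5, 3 and 26 CG dinucleotides. Over protein-coding genes, the median window held 9 CG in 5466 genes that rose, 6 in 4769 that fell and 5 in 10613 that were not called, and 47.6%, 34.4% and 31.7% of the windows held 10 or more, against 36.5% of all 20848. At least 1 CG was present in 92.3% of all windows (CG reads the same on both strands). LAP2B was measured over whole genes, so the windows describe the genes and not sites of binding.

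Genes of the nuclear envelope moved both ways. Of 23 partners of the lamina, 9 rose (39.1%) and 5 fell (21.7%), with a median of 0.17, where 26.2% and 22.9% of protein-coding genes did. Tm7sf2 (1.25 ± 0.22) and Nrm (1.19 ± 0.22), a sterol reductase of LBR's family and nurim, rose together with Emd (1.17 ± 0.22), which makes emerin, and Sun2 (0.97 ± 0.16), which spans the inner membrane and anchors the cytoskeleton. Emd stood at 1.02 ± 0.13 (SD, n = 3) in LBRKO and 2.41 ± 0.33 in QKO. Tor1aip1, which makes LAP1, fell from 12.2 ± 1.3 to 6.81 ± 0.26 (-0.83 ± 0.13, limma adjusted p = 1.1e-06). Zmpste24, the protease that matures prelamin A, fell by 0.69, Tmpo itself by 0.55 and Syne2, a nesprin, by 0.32. The genes knocked out showed no loss of DNA signal that would mark the genotype, since Lmna (0.79) and Lmnb2 (0.91) rose, Lmnb1 fell by 0.36 and Lbr stood at 0.19 (adjusted p = 0.305). The alleles are not resolved in gene sums, so these values check no label.

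Genes for H3K9 methylation, a mark of heterochromatin, gave 8 rises and 4 falls among 15. Uhrf1, a reader that recruits DNA methylation to H3K9-methylated DNA, rose from 4.16 ± 0.33 to 9.35 ± 0.45 (1.15 ± 0.15, limma adjusted p = 1.8e-08), and Ehmt2, the G9a methyltransferase, rose by 0.88. Setdb2 fell from 14.3 ± 1.3 to 7.05 ± 0.66 (-1.01 ± 0.12), Kdm4c, a demethylase, by 0.62 and Atf7ip and Kdm3a on chromosome 6 by 0.87 and 0.72. Among 18 antiviral sensing genes 10 rose and 5 fell. Irf3, the transcription factor downstream of the sensors, rose from 1.21 ± 0.17 to 3.97 ± 0.51 (1.63 ± 0.22), whereas Eif2ak2, the kinase PKR, fell from 14.2 ± 1.2 to 6.68 ± 0.78 (-1.08 ± 0.13). Among protein-coding genes as a whole 26.2% rose and 22.9% fell on the same scale, and 53.3% and 55.6% of these lists rose.

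Developmental genes moved in both directions, against 26.2% of protein-coding genes that rose and 22.9% that fell. Of 19 naive pluripotency factors 3 rose and 6 fell, with a median of -0.09. With division by the mean gene 5 rose and 5 fell, and the median turns to 0.06. In the main test Pou5f1, which makes OCT4, rose from 1.84 ± 0.18 to 3.48 ± 0.21 (0.89 ± 0.22), and Klf2 (0.82) and Sox2 (0.85) rose as well. Nanog on chromosome 6 fell from 4.77 ± 0.45 to 2.90 ± 0.13 (-0.70 ± 0.15), beside Nr0b1, Dppa4, Klf5, Dppa2 and Nr5a2. Of 19 markers of the primed epiblast 6 rose, led by Etv4 (1.10 ± 0.15), and Car4 and Fgf5 fell, whereas Otx2 stood at -0.22 (adjusted p = 0.310). Mesoderm genes gave 4 rises and no fall among 20, with Tbx6 at 1.27, and primitive endoderm regulators 3 and 3 among 20. Of 19 Wnt ligands 7 rose and 5 fell, and 4 of the falls (Wnt16, Wnt2, Wnt5b and Wnt7a) were on chromosome 6. Of 39 Hox genes 3 rose and none fell in the limma test, while 23 were lower on the spike-in scale (60.1% of all genes were).

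Olfactory receptor genes, one of the largest gene families, fell more often than they rose. Of 1104 olfactory receptor genes, at a median LMNB1 percentile of 86.6, 233 fell (21.1%) and 12 rose (1.09%), with a median of -0.24, beside 16.4% and 13.8% of all genes and 22.9% and 26.2% of protein-coding genes. In class 9 of the 10 classes of genes ranked by LMNB1, 27.4% fell and 3.75% rose, with a median of -0.28. With LBR present the olfactory receptor genes had a median of -0.54 and 356 fell, where 18.6% of all genes were called (8.68% higher, 9.92% lower). Of 111 vomeronasal type 2 receptor genes 33 fell and 8 rose, with a median of -0.07. With division by the mean gene 24 of them fell and 21 rose, and the median turns to 0.08. On the relative scale these genes had fallen further with LBR present (92 of 111, median -0.64). On that scale 38 of them passed the interaction toward a smaller relative loss without LBR, where 2.21% of all genes did. On the spike-in scale 96 of the 111 were lower in QKO (median -0.96), so a smaller loss of signal as such was not shown. Vmn2r86 fell from 9.47 ± 0.94 to 3.19 ± 0.20 (-1.54 ± 0.17) and Vmn2r44 rose from 3.00 ± 0.25 to 4.10 ± 0.38 (0.44 ± 0.15). Of 57 Pramel genes 20 fell and none rose, with a median of -0.49 and Pramel13 at -1.38. Of 40 very long neuronal genes 16 fell (40.0%) and 2 rose (5.0%) in the main test, and 13 fell and 10 rose with division by the mean gene. Their median was -0.20 here and -0.57 with LBR present, where 36 fell. In the tenth of all genes with most bins, 41.9% fell and 14.2% rose in the main test, with a median of -0.18. Fgf14 fell from 264.8 ± 19.9 to 120.9 ± 3.75 (-1.13 ± 0.11). Reads of near-identical copies may be placed in any of them, so single members of the receptor and Pramel families are uncertain.

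The 27 killer cell lectin-like receptor genes all lie on chromosome 6, and 23 of them fell with a median of -0.81, where 51.9% of the genes of that chromosome fell. Klrk1, the activating receptor NKG2D, fell from 3.66 ± 0.25 to 1.23 ± 0.23 (-1.51 ± 0.21), and Klrg2, which lies outside the natural killer gene cluster, stood at -0.09 (adjusted p = 0.680). Other families rose on the relative scale more often than the 13.8% of all genes or 26.2% of protein-coding genes that did. Of 68 replication-dependent histone genes only 24 passed the filter on low values, and of these 17 rose and none fell, with a median of 0.99 and H4c1 from 0.417 ± 0.049 to 1.44 ± 0.08 (1.58 ± 0.33). Their median on the spike-in scale was 0.21 in place of -0.82 for all genes, with 1 of the 24 called higher there and 1 lower. Of 75 ribosomal protein genes 34 rose and 2 fell (median 0.56), and of 58 clustered protocadherin genes 24 rose and none fell in the limma test (median 0.47). On the spike-in scale these lists had medians of -0.29 and -0.36, with 11 and 17 genes called lower and 1 and 0 higher. Among the protocadherins, Pcdhgc4 rose by 0.88 ± 0.14 on the relative scale.

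The remaining lists had medians near that of all genes or members that moved both ways, and are read against the shares of protein-coding genes that rose (26.2%) and fell (22.9%). Some of their members fell below the filter on low values: 148 of 230 vomeronasal type 1 receptor genes and 39 of 66 KRAB zinc finger genes were tested, and for vomeronasal type 2 and olfactory receptors above 111 of 122 and 1104 of 1148. Among the 39 KRAB zinc finger genes from Zfp900 to Zfp999, 8 rose and 9 fell (median -0.04), from Zfp931 at -1.12 ± 0.16 to Zfp940 at 0.64 ± 0.17. With division by the mean gene 14 of them rose and 4 fell, and the median turns to 0.11. Among 77 Cyp2, Cyp3 and Cyp4 genes 5 rose and 11 fell (-0.04, turning to 0.11), among the 148 vomeronasal type 1 receptor genes 11 and 27 (0.06), among 51 serpin genes 1 and 1 (0.04) and among 70 defensin genes 1 and 2 (0.04). With division by the mean gene 16 Cyp genes rose and 8 fell, and 22 vomeronasal type 1 genes rose and 20 fell. Serpin genes then gave 5 rises and 0 falls, and defensin genes 5 and 1. Of the 27 falls among vomeronasal type 1 genes in the main test, 26 were on chromosome 6. Of 38 proteasome genes 14 rose and 9 fell, with Psmb5 at 1.02 ± 0.23 and Psmd14 at -1.11 ± 0.12. Of 20 transposon silencing factors 5 rose (25.0%) and 4 fell (20.0%), near those shares, with Zfp809, which binds the primer site of endogenous retroviruses, at 0.63 ± 0.13 and Morc1 at -0.72 ± 0.10.

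Chromosome 6 stood apart from the rest. Of its 4092 genes 2125 fell and 12 rose, and the median was -0.60. The other chromosomes had medians between -0.17 (X) and 0.31 (Y). The Y chromosome was lost in part of the karyotyped WT and TKO cells, so its content and LAP2B binding cannot be told apart there. The median signal per bin of chromosome 6 over that of all genes was 1.44, 1.44 and 1.42 in the LBRKO libraries and 0.906, 0.913 and 0.925 in the QKO libraries, beside 1.16 ± 0.02 in WT, 0.979 ± 0.003 in TKO and 1.08 ± 0.02 in WT IGG. The LBRKO libraries were thus above WT, and the QKO libraries below TKO and below the background. The shift of chromosome 6 was present at every level of LMNB1, with medians of -0.50, -0.51, -0.63 and -0.80 over 4 classes of chromosome 6 genes against 0.24, 0.14, -0.04 and -0.27 elsewhere. In naive cells without LBR the median of chromosome 6 was -0.77, and with LBR present in EpiLCs -0.17. A change from 3 copies to 2 would give -0.58 on this scale. No input or IGG library of LBRKO or QKO was analysed here, so copy number and LAP2B binding cannot be told apart on this chromosome. Chromosome 8, which is trisomic in the karyotyped TKO line and in part of the WT cells, had a median of 0.09. Its median signal per bin over that of all genes was 1.38 in LBRKO and 1.50 in QKO EpiLCs. It was also raised in WT (1.42), TKO (1.48) and WT IGG (1.47), and its copy number in these libraries was not tested. Without chromosome 6, 9581 genes rose and 9274 fell among 66289, and the level and lamina contrast differed by -1.03 and -0.54.

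**Figure D4:**
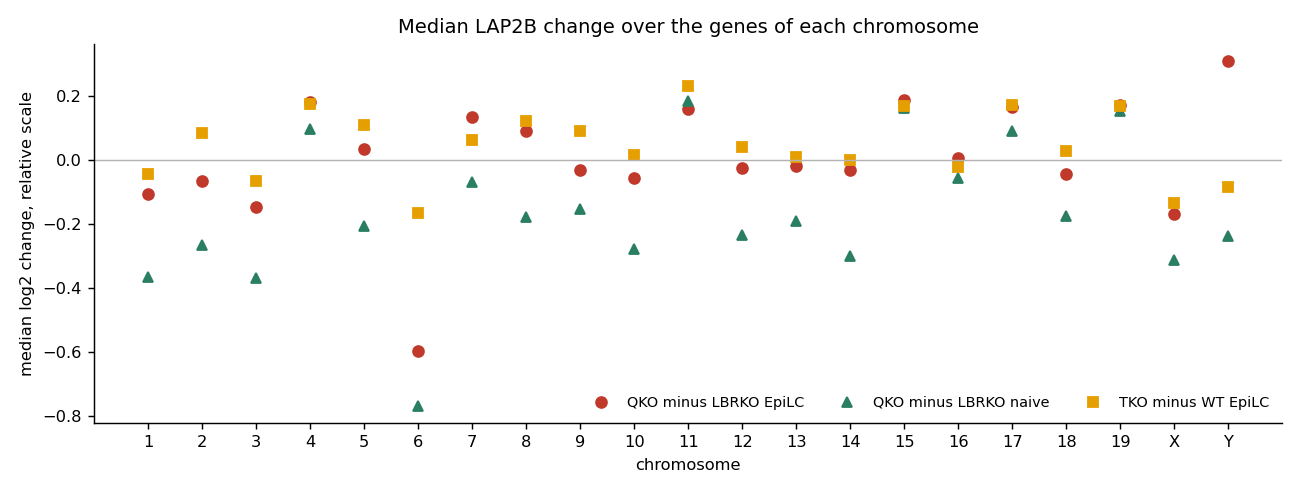
Median log2 change on the relative scale over the tested genes of each chromosome, for QKO minus LBRKO EpiLCs, QKO minus LBRKO naive cells and TKO minus WT EpiLCs. Chromosome 6 lies at -0.60, -0.77 and -0.17, below each other chromosome in all 3 comparisons.

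In windows of 1 Mb that hold at least 10 genes, 365 of 2195 had a median below -0.5, of which 83 were on chromosome 6, and 138 were above 0.5. The lowest 25 held 14 of chromosome 6 and 3 of X. The lowest of all, chr6:141000001-142000000, holds transporter genes of the Slco1 family, and its 17 genes all fell (median -1.64). Next to it in rank, chr6:148000001-149000000 with Ipo8 and Caprin2 had signal per bin over the median gene of 4.29, 4.09 and 3.74 in LBRKO, 1.57, 1.55 and 1.42 in QKO, 1.40 to 1.57 in WT and 1.00 to 1.14 in TKO. This window was therefore raised in LBRKO by 1.48 over WT (log2), and QKO stood at the WT level. Off chromosome 6 the lowest was chr1:194000001-195000000 with Cr2 and Cd34, where 31 of 31 genes fell (-1.50), LBRKO lay at 2.44 to 3.06 and QKO at 0.944 to 1.04. The highest was chrY:90000001-91000000, where 9 of 13 genes rose (1.39), on the chromosome of variable content. Next to it, in chr8:85000001-86000000, with Junb and Prdx2, 58 of 69 genes rose (1.11), from 1.36, 1.40 and 1.50 in LBRKO to 3.50, 3.63 and 2.99 in QKO.

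On the relative scale, the change between cells with and without lamins differed by LBR status at 5421 of 70381 genes (7.70%, limma interaction contrast). Of these genes 3867 (5.49%) were lower without LBR and 1554 (2.21%) higher. In both comparisons line of origin differs along with the lamins, and these cannot be told apart. Chromosome 6 held 816 of the 5421 genes, 15.1% against 5.81% of the genes tested, and 813 of these were lower. In a separate fit on the 66289 genes off chromosome 6, 4305 passed. Across genes the changes with and without LBR had a Pearson r of 0.50 over 70381 genes, and 0.58 over 28589 genes of at least 10 bins, as a description over libraries that the comparisons do not share. Of 7217 genes called in both, 6900 moved the same way, and the 7217 are 33.9% of the genes called without LBR and 55.1% of those called with it. Med13, a Mediator subunit, moved by -1.32 without LBR and 0.13 with it (interaction -1.45 ± 0.17), and Mmp3, a matrix protease, by 0.96 and -0.69 (1.65 ± 0.28). Against naive cells without LBR r was 0.77, and 18176 of 18350 genes called in both moved the same way. Naive cells had 53.4% of genes called (21.9% higher, 31.5% lower), and the effect differed between the stages at 11631 genes (16.5%), 5504 higher (7.82%) and 6127 lower (8.71%) in EpiLCs.

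Transposable elements (TEs) were measured as the mean over the copies of a family. The width of the bins behind these values was not settled here, since the methods name wider bins than the values imply, so a value may include sequence beside the copy. On the spike-in scale 1201 of 1202 families (99.9%) fell and 0 (0%) rose in the limma test (1202 fell or rose, 1 of them upward, with only the 6 libraries in the model), with a median of -1.01. FordPrefect, a DNA transposon of 270 copies, was the exception at 0.33 (limma adjusted p = 0.152). Relative to the median family of each library 305 families (25.4%) were called, of which 223 families (18.6%) rose and 82 (6.82%) fell. Dividing by the median gene in place of the median family shifts each change down by 0.20 (median), after which 22 families rose and 937 fell, or 2.29% higher among those called in place of 73.1%. Directions of families are therefore given against the median family.

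IAP elements, a young and active family of endogenous retroviruses, rose against the median family. Of 25 IAP families 22 rose and none fell, with a median of 0.27. With division by the median gene the median was 0.07 and 7 rose, and with the median over copies 12 rose. IAPLTR3-int stood at 0.528, 0.528 and 0.556 in LBRKO and at 0.809, 0.818 and 0.823 in QKO (0.52 ± 0.06, limma adjusted p = 7.2e-05), and IAPEz-int rose from 1.76 ± 0.07 to 2.28 ± 0.08 (0.35 ± 0.10). On the spike-in scale IAPLTR3-int stood at 0.322 to 0.369 in LBRKO and 0.222 to 0.242 in QKO, beside a WT IGG mean of 0.199. With LBR present the IAP families had a median of -0.02, none rose and 3 fell, and 19 of the 25 passed the interaction toward a higher value without LBR. Of all families 230 passed it, 14.8% of those tested higher and 4.33% lower, and 33.3% were called with LBR present, 14.8% higher and 18.5% lower. In naive cells 63.6% were called, 38.1% higher and 25.5% lower, and the stages differed at 27.8%, 7.32% higher and 20.5% lower in EpiLCs. ETn and MusD elements gave 4 rises among 5. With division by the median gene 0 of them were called higher and 1 lower (median -0.04), and with the median over copies 1 rose. Of 23 RLTR13 families 3 rose and 1 fell, RLTR13F, from 2.48 ± 0.05 to 1.85 ± 0.05 (-0.40 ± 0.08). With division by the median gene 0 RLTR13 families were called higher and 16 lower, and with the median over copies 2 rose and 0 fell. The fall of RLTR13F was lost with the median over copies (0.0050, limma adjusted p = 0.997).

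LINE-1 elements are rich in lamina-bound DNA. Over the LINE class 7 of 194 families rose and 17 fell without LBR, beside 18.6% and 6.82% of all families, among them 10 falls and 1 rise of 71 ancient L1M families and 1 rise of 2 young L1MdGf families. With the median over copies 0 LINE families rose and 0 fell in the limma test, and with division by the median gene 0 rose and 180 fell. None of the 7 L1MdA, 3 L1MdTf and 14 L1MdF and L1MdV families were called on the relative scale (limma, 24 families), with medians of 0.04, -0.01 and 0.01. With LBR present they had medians of -0.17, -0.14 and -0.19, and 6, 2 and 14 of them fell. The interaction passed in 6, 1 and 13 of them, each toward a smaller relative loss without LBR. With division by the median gene all 7, 3 and 14 of them were called lower in QKO (medians -0.17, -0.23 and -0.19). L1MdA_III, for example, stood at 1.97 ± 0.02 in LBRKO and 2.08 ± 0.04 in QKO (0.07 ± 0.03, adjusted p = 0.102) and changed by -0.16 with LBR (interaction 0.23, adjusted p = 0.003). Lx elements had a median of -0.04, with 2 falls among 21.

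SINE elements, which lie in gene-rich DNA, rose against the median family in 25 of 34 families, beside 18.6% of all families. With the median over copies none of the 34 were called higher in the limma test, and with division by the median gene 0 were higher and 18 lower. All 5 B2 families rose, with B2_Mm1a from 1.09 ± 0.01 to 1.31 ± 0.02 (0.25 ± 0.04), and 11 of 15 B1 families did. Their medians of 0.17 and 0.12 turn to -0.04 and -0.08 with division by the median gene. A list of 4 satellite families, which is not the whole class, gave 2 rises, with ZP3AR from 1.02 ± 0.03 to 1.53 ± 0.07 (0.54 ± 0.08). GSAT_MM, the major satellite of pericentromeres, stood at 1024 ± 66 and 1366 ± 80 (0.42 ± 0.21, limma adjusted p = 0.154). MurSAT1, a satellite family outside that list, was also called higher (0.36 ± 0.10, limma adjusted p = 0.018), but not with the median over copies (limma adjusted p = 0.403). FordPrefect had the largest rise of all families with at least 100 copies, from 1.74, 1.82 and 1.83 in LBRKO to 5.36, 4.91 and 4.92 in QKO (1.44 ± 0.13). On the spike-in scale FordPrefect stood at 1.06 to 1.21 in LBRKO and 1.33 to 1.60 in QKO, and its mean in the WT IGG background was 1.37, so its LAP2B signal was at the level of the background. The change was 0.03 (adjusted p = 0.951) when the median over copies replaced the mean. MTC-int, RLTR1D2_MM and MMERGLN-int rose by 0.49, 0.49 and 0.44, and L1M3de, Tigger12c, RLTR9A3B, UCON1 and RLTR31_Mm fell by 0.23, 0.20, 0.18, 0.16 and 0.15. With the median over copies none of these 5 falls passed (limma adjusted p from 0.109 to 0.791), nor did MTC-int (0.07, adjusted p = 0.788). On the spike-in scale the QKO signal of some of these families was also close to their WT IGG mean. MTC-int stood at 0.413 to 0.471 against 0.405, MMERGLN-int at 0.299 to 0.356 against 0.296 and L1M3de at 0.228 to 0.249 against 0.227. Others lay further above it, such as RLTR13F at 0.510 to 0.558 against 0.391 and ZP3AR at 0.410 to 0.470 against 0.312. The part of background in these changes was not tested.

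**Figure D5:**
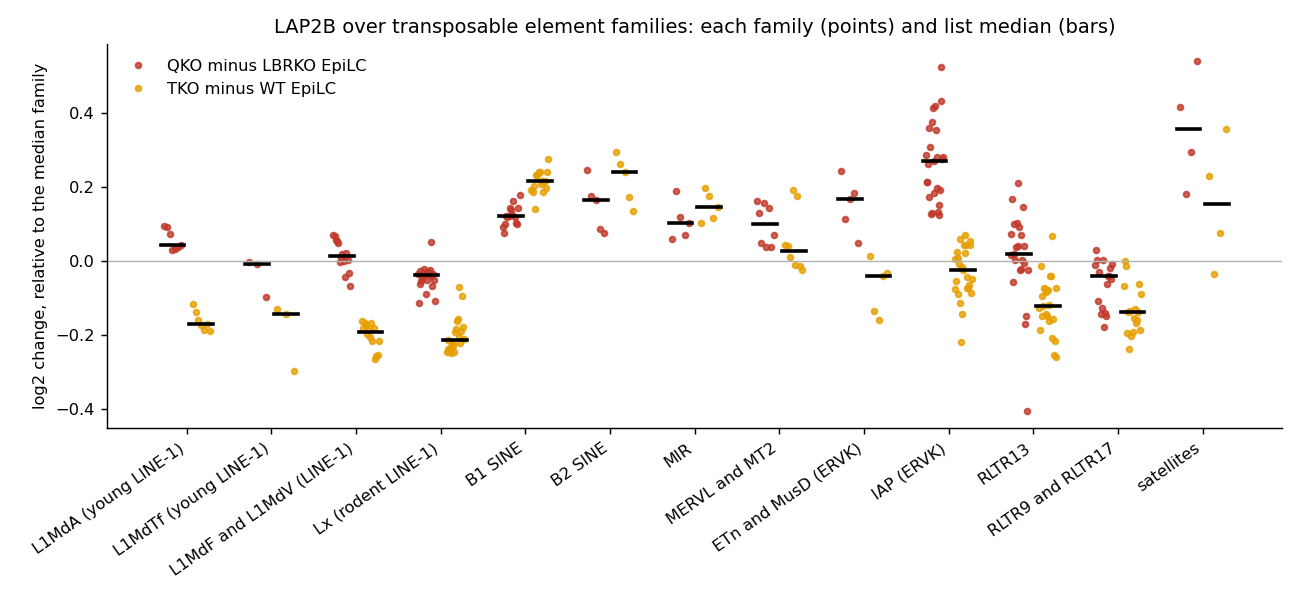
Log2 change of TE families relative to the median family, each point a family and each bar the median of its list, for QKO minus LBRKO EpiLCs and TKO minus WT EpiLCs. IAP families have a median of 0.27 without LBR and -0.02 with it, and L1MdA families 0.04 and -0.17.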

How the data were processed

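LAP2B CUT&RUN libraries were analysed from the deposited gene and TE tables. The authors had aligned reads, by their methods, with Bowtie2 2.3.5.1 to mm39, kept proper primary pairs without duplicates (SAMtools 1.10) and made coverage with deepTools, as RPKM multiplied by a factor from yeast spike-in reads. The deposited signal of a gene is a sum over the 1 kb bins it touches and is not divided by length, so longer genes have higher values and overlapping genes share bins. Whole reads were recovered from these values (tolerance 0.05).

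Values were compared as deposited and after dividing each library by its median gene or TE family. Limma 3.58.1 (R 4.3.3) was fitted to log2(value + pseudocount) over 24 LAP2B libraries with 8 group means, with a pseudocount of 0.1 on the relative and 0.209 on the spike-in scale, and p-values were adjusted by the Benjamini-Hochberg method over all genes. Fold changes are on that scale and understate those of low genes. The lowest 0.1 of genes were left out (70381 of 78202 tested), and families with fewer than 10 copies (1202 of 1225 tested). Measures with 1 value per library were compared by two-sided exact permutation tests (Python 3.11.15, SciPy 1.17.1). Gene positions are from GENCODE M39. Named genes were the 8 largest rises and falls by the rule given with them, named families the 6 largest each way with at least 100 copies, beside members of the lists. Of these, 1 of the largest falls is not reported here. The members and lists were chosen with earlier results of these data known. Alternatives were other pseudocounts, filters and scalings, edgeR 4.0.16 on recovered reads, a replicate block and leaving out libraries.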

Additional observations from a re-analysis of the deposited data

Results flagged for a closer look

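Each result here is a difference between the lamin effect in LBR-null EpiLCs and the same effect elsewhere, on the relative scale, that passed limma's interaction contrast at an adjusted p under 0.05. In each of these comparisons the cells with and without lamins also differ by line of origin. The effect differed from that with LBR present at 5421 genes and 230 TE families, and from that in naive cells at 11631 genes and 334 families.

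Among the genes that rose, the difference from the effect with LBR (log2) was 0.99 for Mafg, 1.10 for Polr2e, 1.34 for Renbp, 1.24 for Fbxw9, 1.07 for Slc3a2 and 0.95 for Scaf1. The EpiLC effect was smaller than the naive one for Mafg (-1.27), Renbp (-1.70), Fbxw9 (-1.18), Slc3a2 (-1.46), Scaf1 (-1.59) and Spred3 (-0.91). Among the genes that fell, the difference from the effect with LBR was -1.16 for Slco1b2, -1.59 for Ipo8, -1.23 for Atg4a, -1.38 for Lrp6, -0.70 for Cr2 and -1.02 for Radx. Slco1b2, Ipo8 and Lrp6 lie on chromosome 6.

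Among TE families, the difference from the effect with LBR, relative to the median family, was 0.78 for FordPrefect, 0.48 for IAPLTR3-int and 0.35 for MTC-int. It was 0.29 for RLTR1D2_MM, 0.31 for MMERGLN-int and -0.20 for Tigger12c. On the spike-in scale the same differences were 0.12, -0.08, -0.26, -0.34, -0.28 and -0.79 in that order. None of them passed there (limma adjusted p from 0.102 to 0.778). The limits given above for FordPrefect and MTC-int, of background and of the median over copies, hold here too. From naive cells to EpiLCs the relative effect differed by -1.25 for FordPrefect, -0.53 for ZP3AR, 0.35 for IAPLTR3-int, -0.50 for MTC-int and -0.27 for RLTR9A3B. None of these passed on the spike-in scale (limma adjusted p from 0.138 to 0.743).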

How the results depend on the processing

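The relative changes of the 15 named genes kept their direction and their side of the threshold under the alternatives run (251 values). These genes were picked for large changes without overlap in the same libraries, so their stability does not speak for the other genes called. The 21270 relative calls became 16842 without LBRKO replicate 2 and 29137 with only the 6 EpiLC libraries in the model. The level, lamina contrast and both correlations kept their direction. Relative TE calls depended most on the processing: the 305 families became 40 (38 higher, 2 lower) with the median over copies, 472 with only the 6 EpiLC libraries in the model, 959 (22 higher, 937 lower) with division by the median gene, and 174 to 227 with 1 library left out. Without LBRKO replicate 1 or 2, or QKO replicate 1 or 2, the count was 174, 179, 183 and 196. With the median over copies RLTR13F turned from -0.40 to 0.0050 (limma adjusted p = 0.997). In that setting FordPrefect, MTC-int, L1M3de, Tigger12c, RLTR9A3B, UCON1 and RLTR31_Mm did not pass either (limma adjusted p from 0.109 to 0.951). ZP3AR, IAPLTR3-int, RLTR1D2_MM and MMERGLN-int still did. Pooled over all settings, 8 of 144 values of named families no longer passed and 1 was reversed, most of them in that setting. Genes lower or higher on the spike-in scale numbered 22142 among genes of at least 10 bins, where fewer genes were tested. The causes of the other changes were not tested. On the relative scale same-numbered libraries did not deviate together across genes (correlations under 0.1). A shift in level shared by same-numbered libraries is removed on that scale, so pairing in level was not tested. With the replicate block the counts were 21159 genes on the relative and 41224 on the spike-in scale, 5300 and 11525 for the interactions with LBR and stage, and 298 and 1200 TE families. The alternatives without chromosome 6 were chosen after seeing the data. Genes called higher on the spike-in scale ranged from 15 to 350 over the alternatives, against 63. EdgeR on recovered reads called 22317 genes on the relative scale. Depth limits short genes most, since the median gene held 81 to 114 reads.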
